A study of Mus musculus with 14 samples.

Results

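The interferon regulatory factors are a family of transcription factors, numbered Irf1 to Irf9 in the mouse, that bind GAAA-rich elements in the promoters of interferons and of interferon-stimulated genes. All symbols Irf1 to Irf9 with an array row annotated to exactly 1 gene symbol were taken, and the row with the highest mean stood for the gene. That gave 8 members (Irf1, Irf2, Irf3, Irf4, Irf5, Irf7, Irf8 and Irf9) of the 19938 genes tested. The values come from microglia sorted from the ipsilateral cortex of C57BL/6J mice, all male and 12 to 14 weeks old. The mice had undergone a 15 min transient occlusion of the middle cerebral artery followed by 72 h of reperfusion (I/R) or sham surgery, and were either wild type or TLR4-/-, lacking the lipopolysaccharide and damage receptor TLR4. There were 4 wild-type I/R arrays (A to D), 4 wild-type sham arrays (A to D), 3 TLR4-/- I/R arrays (B, C and D) and 3 TLR4-/- sham arrays (A, B and D). The sources used here state neither when the sham samples were taken, nor how microglia were sorted, nor how TLR4 was disrupted. The titles of treated samples also hold the unexplained abbreviation IPC. The labels do not state that each sample came from its own animal, so the spread behind every p-value is that between samples and may be technical.

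Members of the family act at different points of the interferon response. IRF3, IRF5 and IRF7 are held latent and are activated below Toll-like receptors and cytosolic nucleic acid sensors, IRF3 and IRF7 being the main inducers of type I interferon genes. Secreted interferon then signals through JAK kinases to a complex that contains STAT2 and IRF9 and binds the interferon-stimulated response element (ISRE), where it switches on antiviral genes, Irf7 itself among them. IRF1 is induced by interferon gamma and activates antigen presentation genes, IRF2 competes with IRF1 for its sites, and IRF4 and IRF8 work with PU.1 at composite elements in immune cells. IRF8 is required for microglia to develop, and IRF8 and IRF5 have been linked to the reactive state of microglia after nerve injury.

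The values are log2 RMA values, and a level below 4.67, the 95th percentile of the means of 1027 olfactory receptor genes, was taken as not above background. The row for Tlr4 read 8.57 to 8.92 in the wild-type sham arrays, 8.15 to 8.47 in the arrays labelled TLR4-/- sham, 8.14 to 8.48 in wild-type I/R and 7.62 to 8.40 in the arrays labelled TLR4-/- I/R. Neither genotype difference of Tlr4 passed the test (limma adjusted p = 0.920 after sham and 0.634 after I/R). The row therefore does not check the genotype labels, and the sources used here do not say which exons its probes or the allele concern. All 12 measured microglia markers were above background in every group. Of the 10 measured neutrophil markers, between 8 and 10 were at or below background in each group. Wild-type sham array C and TLR4-/- I/R array D were among 8 of 14 arrays that correlated better with an array of the other genotype after the same surgery than with any of their own group. For the first the correlation was 0.992 against at most 0.986, and for the second 0.992 against at most 0.990. Wild-type sham array D had a gap similar to the second (0.991 against at most 0.989) but was not in the pair left out. Member calls lost or gained without wild-type sham array C and TLR4-/- I/R array D are given with the member.

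After I/R, Irf7 rose in both genotypes while several other family members moved down by much smaller amounts. In wild-type microglia 1 of 8 members was called higher (Irf7) and 3 were called lower (Irf2, Irf4 and Irf5), against 6.15% of all genes called higher and 3.63% called lower at a limma adjusted p under 0.05. In TLR4-/- microglia 1 of 8 was called higher (Irf7) and 1 lower (Irf2), against 5.04% and 3.13% of all genes. In the mean of both genotypes 2 members were called higher (Irf7 and Irf9) and 3 lower (Irf2, Irf4 and Irf5), where 9.61% of all genes were higher and 8.52% lower. Irf1, Irf3 and Irf8 were not called in any comparison. The median log2 change over the 8 members was -0.28 in wild type and -0.25 in TLR4-/-, and over all genes it was -0.06 and -0.03. Fewer cells of a type and less RNA per cell cannot be told apart in such bulk samples. With each array centred on its own median, the share of called genes that were higher went from 62.9% to 76.8% in wild type and from 53.0% to 66.3% in the mean of both genotypes, so the balance of up and down depends on the scaling.

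**Figure D1:**
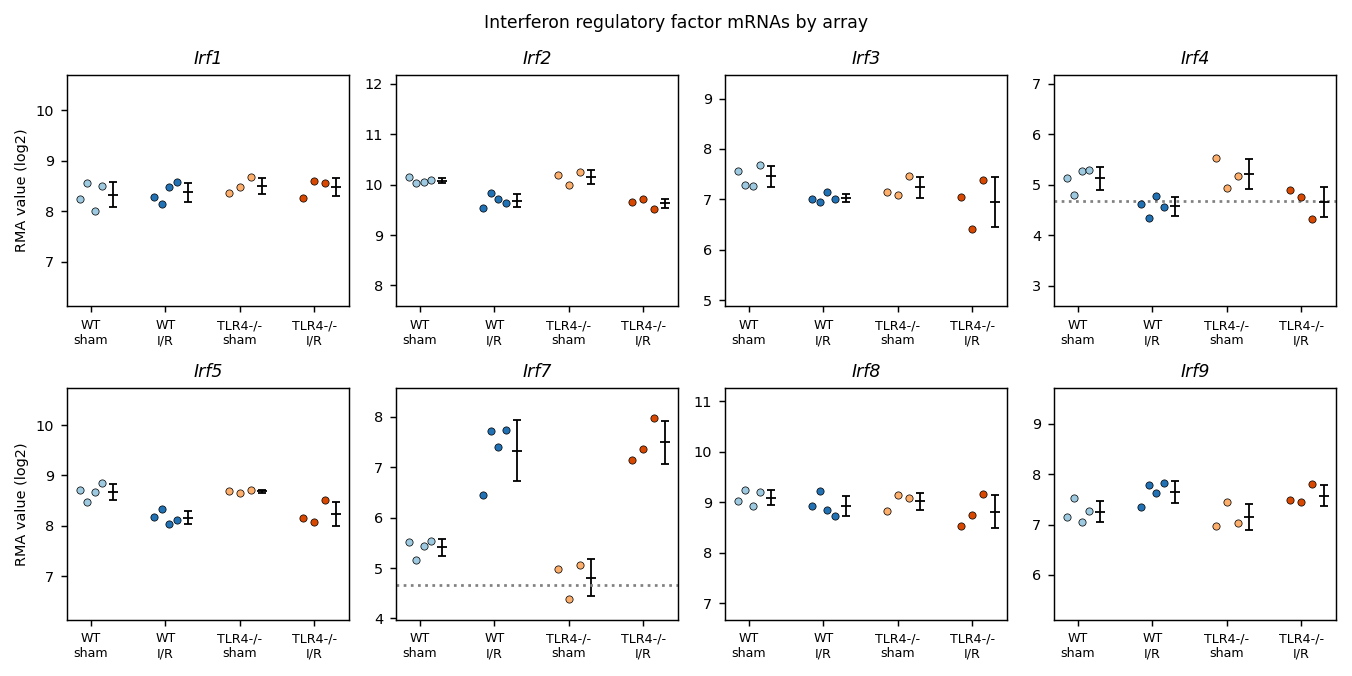
Log2 RMA value of each interferon regulatory factor on each of the 14 arrays, by group, with the group mean and SD beside the points; every panel spans the same number of log2 units, and the dotted line is the background level of 4.67. Irf7 is the member whose I/R arrays (6.46 to 7.97) stand far above its sham arrays (4.38 to 5.54), while the I/R arrays of Irf2 lie just below its sham arrays.

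Irf7, the interferon-inducible factor that amplifies type I interferon production, had values of 5.52, 5.16, 5.43 and 5.54 in wild-type sham arrays A to D and of 6.46, 7.72, 7.40 and 7.73 in wild-type I/R arrays A to D. In TLR4-/- microglia it read 4.98, 4.38 and 5.05 in sham arrays A, B and D, and 7.15, 7.37 and 7.97 in I/R arrays B, C and D. Every I/R array was above every sham array, wild-type I/R array A being the lowest of the I/R arrays and TLR4-/- sham array B lying below the background level. Irf7 was 1.92 log2 units higher after I/R in wild type (SE 0.25, 3.78-fold, limma adjusted p = 5.48e-05). The rise in TLR4-/- was 2.69 log2 units (SE 0.29, 6.45-fold, limma adjusted p = 9.81e-06). Without wild-type I/R array A the wild-type rise was 2.21. The TLR4-/- sham mean of 4.81 ± 0.37 (SD, n = 3) is close to the background level, so the fold in that genotype is measured against a signal near background.

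The order of the 4 Irf7 means was TLR4-/- sham (4.81), wild-type sham (5.41), wild-type I/R (7.33) and TLR4-/- I/R (7.50). Of the neighbours in that order, those 2 that differ in genotype did not pass the test. TLR4-/- minus wild type was -0.60 after sham (SE 0.27, unadjusted p = 0.0391, limma adjusted p = 0.920) and 0.17 after I/R (SE 0.27, limma adjusted p = 0.867). The sham arrays of both genotypes did not overlap for Irf7, the only member of 8 for which this was so, as was the case for 5.5% of all genes. After I/R no member had arrays that separated by genotype, against 9.34% of all genes. The I/R change was larger in TLR4-/- by 0.77 log2 units (95% interval -0.03 to 1.58, unadjusted p = 0.0595, limma adjusted p = 0.9998), so a difference between the genotypes was not shown for Irf7. Without wild-type I/R array A this difference was 0.48, and without TLR4-/- I/R array B it was 0.95. These comparisons share their arrays with the I/R comparisons.

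RefSeq promoters (GRCm38.p6), each reaching from 250 bases before to 50 after an annotated start, were found for all 8 members, in 11 windows. They were searched on both strands for the ISRE core (GAAA, any 2 bases, GAAA), the composite element of Ets factors and IRFs (GGAA, any 2 bases, GAAA) and the gamma-activated site (TTC, any 3 bases, GAA). Of all 32851 promoter windows, 3.44% held the first, 2.72% the second and 8.3% the third. The windows of 3 members held a match (Irf1, Irf2 and Irf8) and those of 5 did not, and a match is a description of the letters only. For Irf7, the member that changed most, the stretch from 195 to 76 bases before the start used for its window is shown (chr7:141266500-141266619, minus strand), all in lower case because none of these motifs is in the window. The stretch stops where the annotated gene begins, so the start used lies inside the gene. Sequence more than 250 bases before that start was not searched.
Irf7: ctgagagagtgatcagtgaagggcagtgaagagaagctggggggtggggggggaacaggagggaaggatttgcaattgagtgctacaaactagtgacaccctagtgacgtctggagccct

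Irf9, the DNA-binding subunit of the complex with STAT2, read 7.15, 7.53, 7.05 and 7.27 in wild-type sham arrays A to D and 7.36, 7.78, 7.63 and 7.83 in wild-type I/R arrays A to D. In TLR4-/- its sham arrays A, B and D read 6.98, 7.44 and 7.03, and its I/R arrays B, C and D read 7.48, 7.44 and 7.81. The highest sham array, B in both genotypes, lay above the lowest I/R array, so the groups overlapped. The difference was 0.40 in wild type (SE 0.15, limma adjusted p = 0.102) and 0.42 in TLR4-/- (SE 0.17, limma adjusted p = 0.153), neither of which passed the test. In the mean of both genotypes Irf9 was 0.41 log2 units higher (SE 0.11, 1.33-fold, limma adjusted p = 0.0155). That call was lost without TLR4-/- sham array A (limma adjusted p = 0.0501) and without wild-type sham array C and TLR4-/- I/R array D together (limma adjusted p = 0.0793).

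Irf3, the constitutively made partner of Irf7 in interferon induction, had lower means after I/R but did not pass the test. Its wild-type arrays A to D read 7.57, 7.29, 7.27 and 7.68 after sham and 7.00, 6.95, 7.15 and 7.00 after I/R, with no overlap. In TLR4-/- the sham arrays A, B and D read 7.15, 7.08 and 7.47, and I/R arrays B, C and D read 7.04, 6.41 and 7.39, so the groups overlapped and the I/R arrays had the widest spread of any Irf3 group (SD 0.49). Irf3 differed by -0.43 in wild type (SE 0.17, limma adjusted p = 0.137), by -0.29 in TLR4-/- (limma adjusted p = 0.460) and by -0.36 in the mean of both (SE 0.13, limma adjusted p = 0.0675). In the mean of both genotypes Irf3 did pass without wild-type sham array C and TLR4-/- I/R array D (-0.50, limma adjusted p = 0.0103), without TLR4-/- I/R array D alone (-0.47, limma adjusted p = 0.0125) and with arrays weighted by their quality (-0.43, limma adjusted p = 0.0236). In wild type it passed without TLR4-/- I/R array C (limma adjusted p = 0.0498) and when only the 2 wild-type groups were fitted (limma adjusted p = 0.0459).

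Irf2, which occupies IRF1 sites and restrains interferon responses, was the member called lower in both genotypes. Its values in wild-type arrays A to D were 10.15, 10.03, 10.05 and 10.09 after sham and 9.53, 9.84, 9.72 and 9.63 after I/R. In TLR4-/- they were 10.20, 10.00 and 10.26 after sham (A, B and D) and 9.65, 9.71 and 9.52 after I/R (B, C and D). All 7 I/R arrays lay below all 7 sham arrays. Only Irf2 and Irf7 of the 8 members separated the arrays of both genotypes in this way, against 6.87% of all genes. Irf2 fell by 0.40 in wild type (SE 0.10, 1.32-fold, limma adjusted p = 0.0162) and by 0.52 in TLR4-/- (SE 0.12, 1.44-fold, limma adjusted p = 0.00860). The wild-type call was lost without I/R array A (limma adjusted p = 0.0619), without I/R array D (limma adjusted p = 0.0513) and with each array centred on its median (-0.34, limma adjusted p = 0.0602).

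The Irf2 promoter window was the only one of the family's 11 with a match to the ISRE core, and it held all 3 motifs. The composite element starts 247 bases before the annotated start and the ISRE core 241 bases before it, so that the 2 overlap, and a gamma-activated site begins at 224 bases before. The stretch is shown because Irf2 is the member called lower in both genotypes (chr8:46739495-46739554, plus strand). Capitals mark the merged composite element and ISRE core, then the gamma-activated site.
Irf2: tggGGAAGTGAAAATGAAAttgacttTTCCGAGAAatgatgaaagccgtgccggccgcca

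Irf5, which acts below Toll-like receptors and drives inflammatory cytokine genes in macrophages, was lower after I/R. It read 8.71, 8.47, 8.68 and 8.85 in wild-type sham arrays A to D and 8.18, 8.34, 8.03 and 8.12 in I/R arrays A to D. In TLR4-/- it read 8.69, 8.64 and 8.72 after sham (A, B and D) and 8.15, 8.07 and 8.51 after I/R (B, C and D). Within each genotype the arrays did not overlap, although TLR4-/- I/R array D exceeded wild-type sham array B. Irf5 fell by 0.51 in wild type (SE 0.12, 1.43-fold, limma adjusted p = 0.00934). Its difference of -0.44 in TLR4-/- (SE 0.14) did not pass (limma adjusted p = 0.0568). It did pass there without I/R array D (-0.57, limma adjusted p = 0.0172), without that array and wild-type sham array C (-0.57, limma adjusted p = 0.0182), with array weights (limma adjusted p = 0.0300) and over genes above background alone (limma adjusted p = 0.0440).

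Irf4, a factor of lymphocytes and of alternatively activated macrophages, was close to background. Its wild-type arrays A to D read 5.14, 4.79, 5.28 and 5.30 after sham and 4.62, 4.33, 4.79 and 4.55 after I/R. TLR4-/- sham arrays A, B and D read 5.54, 4.94 and 5.17, and I/R arrays B, C and D read 4.89, 4.76 and 4.33. The groups did not overlap within a genotype, but both I/R means (4.57 and 4.66) were not above background, so no fold is given. The difference was -0.55 in wild type (SE 0.16, limma adjusted p = 0.0370), which passed, and -0.56 in TLR4-/- (SE 0.19, limma adjusted p = 0.0789), which did not. The wild-type call was lost without any one of wild-type I/R arrays A, B and D or wild-type sham arrays A, C and D. It was also lost after centring, with every array row tested, and without wild-type sham array C and TLR4-/- I/R array D together, with limma adjusted p-values up to 0.106.

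Counting separation of the arrays rather than the test, 5 of 8 members did not overlap between I/R and sham in wild type (Irf2, Irf3, Irf4 and Irf5 lower, Irf7 higher), against 15.6% of all genes. In TLR4-/- it was 4 of 8 (Irf2, Irf4 and Irf5 lower, Irf7 higher), against 23.6% of all genes. In the mean of both genotypes Irf2 fell by 0.46 log2 units (SE 0.08) and Irf5 by 0.48 (SE 0.09), and Irf4 was called lower to a level not above background. For Irf2, Irf3, Irf4, Irf5 and Irf8 both I/R means lay below both sham means, and for Irf7 and Irf9 above them.

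**Figure D2:**
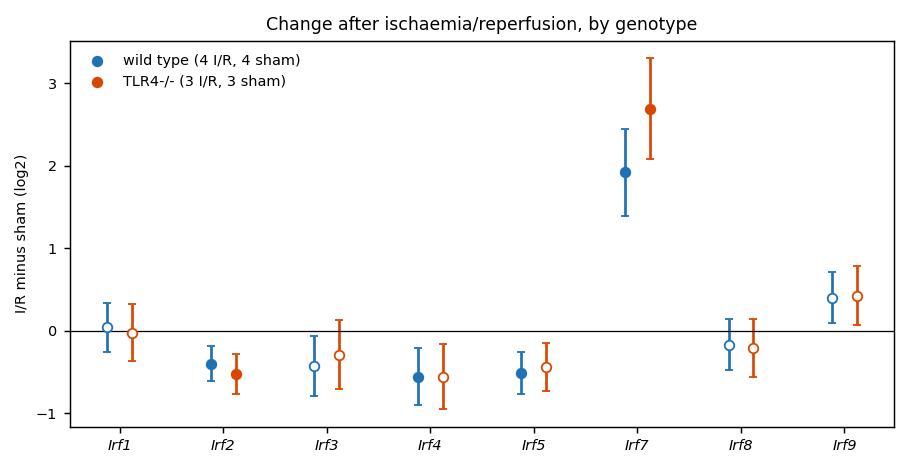
I/R minus sham for each interferon regulatory factor in log2 units with its 95% confidence interval, in wild type (blue) and TLR4-/- (orange); filled points passed a limma adjusted p under 0.05 and open points did not. Irf7 stands at 1.92 and 2.69, and the intervals of all other members lie between -1 and 1.

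Irf8, required for microglial development, read 9.02, 9.23, 8.92 and 9.20 in wild-type sham arrays A to D and 8.92, 9.21, 8.84 and 8.73 in I/R arrays A to D. In TLR4-/- it read 8.83, 9.15 and 9.09 after sham and 8.52, 8.75 and 9.16 after I/R. The groups overlapped in both genotypes. The differences of -0.17 in wild type (95% interval -0.47 to 0.14, limma adjusted p = 0.539) and -0.21 in TLR4-/- (95% interval -0.56 to 0.14, limma adjusted p = 0.546) did not pass.

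Irf1, the early factor of the interferon gamma response, read 8.25, 8.56, 8.01 and 8.50 in wild-type sham arrays A to D and 8.29, 8.14, 8.47 and 8.57 after I/R. TLR4-/- arrays read 8.35, 8.48 and 8.67 after sham and 8.27, 8.60 and 8.57 after I/R, again with overlap. The I/R difference was 0.04 in wild type (95% interval -0.25 to 0.34, limma adjusted p = 0.901) and -0.02 in TLR4-/- (95% interval -0.36 to 0.32, limma adjusted p = 0.965). A further row annotated to Irf1 had a mean of 6.32 and differences of 0.00 in wild type and -0.01 in TLR4-/-. Changes of Irf1 within those intervals are not excluded with this number of arrays.

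Irf8 and Irf1, neither of them called in a comparison, are the other 2 members whose promoter windows held matches, all to the gamma-activated site, an element of the interferon gamma response. The Irf8 window holds sites that start 171 and 153 bases before the start (stretch chr8:120736162-120736238, plus strand). The Irf1 window holds 1 site that starts 90 bases before it (stretch chr11:53769899-53769957, plus strand). Capitals mark the sites, and the stretches are shown so that they can be set beside that of Irf2.
Irf8: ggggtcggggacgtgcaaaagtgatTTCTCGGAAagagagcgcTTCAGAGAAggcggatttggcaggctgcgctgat
Irf1: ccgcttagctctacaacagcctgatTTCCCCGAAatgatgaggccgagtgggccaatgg

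No member was called in a comparison of the genotypes. None of the 8 members was called for the difference of the I/R changes between the genotypes, where limma called 0 of 19938 genes (0%), with 762 at an unadjusted p under 0.05. No member reached an unadjusted p of 0.05 in that comparison. Apart from Irf7, the estimated differences between the genotypes' changes ran from -0.12 for Irf2 (95% interval -0.44 to 0.20) to 0.14 for Irf3 (95% interval -0.41 to 0.68), so differences of such a size cannot be told from 0 here. No member was called for TLR4-/- against wild type after sham (0.00502% of all genes were called), after I/R (0.0201%) or in the mean of both surgeries (0.0251%), and Irf7 after sham was the 1 member with an unadjusted p under 0.05. After I/R, TLR4-/- minus wild type ran from -0.12 for Irf8 to 0.17 for Irf7. After sham, it ran from -0.60 for Irf7 and -0.22 for Irf3 to 0.17 for Irf1.

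Genes upstream of IRF3, IRF5 and IRF7 moved in both directions. Of 18 measured genes of the sensing routes, 5 were called higher and 4 lower after I/R in the mean of both genotypes, with a median of -0.04 beside -0.05 over all genes. Of all genes, 9.61% were called higher and 8.52% lower there. The cytosolic RNA sensors Ifih1 (1.09, limma adjusted p = 3.63e-05) and Ddx58 (0.91, limma adjusted p = 3.95e-05) rose. The DNA-sensing adaptor Sting1 (-0.47), the endosomal receptors Tlr9 (-0.57) and Tlr7 (-0.30) and Tlr4 itself (-0.39) fell, with limma adjusted p-values of 0.000819, 0.00192, 0.0382 and 0.0220. In single genotypes 3 of the 18 were higher and 3 lower in wild type, and 3 higher and 2 lower in TLR4-/-. The shares of all genes were 6.15% higher and 3.63% lower in wild type, and 5.04% and 3.13% in TLR4-/-.

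Interferon transcripts themselves were not called. Of 14 measured interferon genes, 0 passed limma's test in either genotype or in their mean (1, 1 and 2 at an unadjusted p under 0.05), and Ifnb1 was at 2.90 to 3.71 in the 4 group means, not above background. Between 9 and 10 of the 14 were not above background in each group, so the arrays give no level for most of them.

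Downstream of the interferon receptors, 3 of 11 measured genes of JAK-STAT signalling and its feedback rose and 1 fell in the mean of both genotypes. The shares of all genes were 9.61% and 8.52%. Usp18, which blocks the type I receptor, rose by 2.74 log2 units (SE 0.17, limma adjusted p = 5.28e-09). Stat2, which joins IRF9 in its complex, rose by 1.25 (SE 0.15, limma adjusted p = 1.69e-05), and the cytokine suppressor Socs3 by 0.58 (limma adjusted p = 0.00848). Ifngr1, the ligand-binding chain of the interferon gamma receptor, fell by 0.51 (limma adjusted p = 0.000229).

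The ISRE-driven interferon-stimulated genes, which IRF3, IRF7 and the IRF9 complex activate, rose together. Of 17 measured genes, 17 were called higher in wild type, in TLR4-/- and in the mean of both. Of all genes, 6.15%, 5.04% and 9.61% were called higher in these comparisons. The list was drawn up with this response already known and is not independent evidence of it. Its median change was 1.53 in wild type and 2.66 in TLR4-/-, beside -0.06 and -0.03 over all genes. Cxcl10, a chemokine for T cells, rose by 4.65 (SE 0.16, limma adjusted p = 1.03e-11) in the mean of both genotypes. The antiviral genes Ifit2 (3.52), Zbp1 (3.25) and Ifit3 (3.13) followed, with limma adjusted p-values of at most 2.50e-09.

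The mean of these 17 genes per array was lowest in the TLR4-/- sham arrays and, among the I/R arrays, in the array in which Irf7 was lowest. It was 7.08, 7.85, 7.95 and 8.20 in wild-type I/R arrays A to D. In wild-type sham it was 5.67 to 5.97, in TLR4-/- sham 5.42 to 5.54, and in TLR4-/- I/R 8.05 to 8.25. The TLR4-/- sham arrays lay below the wild-type sham arrays, as those of Irf7 did. For TLR4-/- against wild type after sham, limma called 0 of the 17 genes (median -0.38) and 1 of all 19938. Its unadjusted p was under 0.05 for 6 of the 17 and for 1045 of all genes. For the difference of the I/R changes limma called 0 of the 17 (median 0.73) and 0 of all genes. Its unadjusted p was under 0.05 there for 9 of the 17 and for 762 of all genes. A genotype difference was not shown for any single gene of the list, and the list was not tested as a set.

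**Figure D3:**
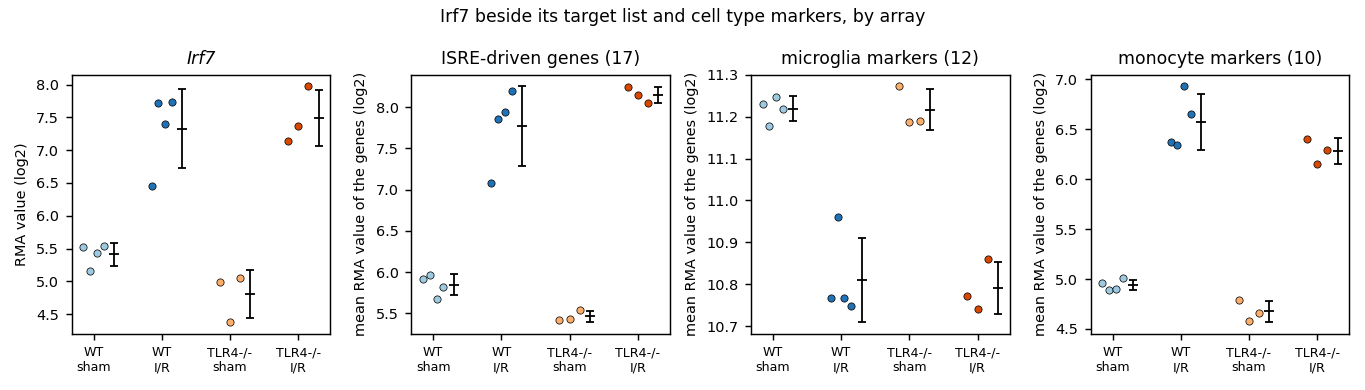
Irf7, the mean of the 17 ISRE-driven genes, and the means of 12 microglia and 10 monocyte markers on each array in log2 RMA units, by group, with mean and SD; each panel has its own scale. Wild-type I/R array A is the lowest I/R array for Irf7 (6.46) and for the mean of the ISRE-driven genes (7.08). The mean of the microglia markers fell by less than 1 unit. The mean of the monocyte markers was higher on every I/R array than on any sham array.

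Of the lists tied to other members, some genes passed the test and others did not. Of 13 measured genes linked to IRF1, limma called 5 higher and 0 lower in the mean of both genotypes, against 9.61% and 8.52% of all genes. Among the 5 were the checkpoint ligand Cd274 (1.19, limma adjusted p = 9.66e-06), the peptide transporter Tap1 (0.78, limma adjusted p = 0.000227), the GTPase Gbp3 (0.66, limma adjusted p = 0.000147) and the adhesion molecule Vcam1 (0.54, limma adjusted p = 0.00992). Their rise stands beside an Irf1 difference of 0.01 log2 units (limma adjusted p = 0.968). Of 6 cytokine genes linked to IRF5 and IRF8, Il1b (2.19, limma adjusted p = 1.49e-06) and Tnf (1.45, limma adjusted p = 5.43e-06) rose. Il6 fell by 1.20 (limma adjusted p = 0.000270), and Irf5 itself fell by 0.48. The other 3 cytokine genes were not called, and 2 or 3 of the 6 were at or below background in each group.

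Of 11 genes linked to IRF4, limma called 2 higher and 1 lower in wild type. In TLR4-/- it called 0, with 3 at an unadjusted p under 0.05. In each group 5 or 6 of the 11 genes were at or below background. In the mean of both genotypes 2 were called higher and 2 lower, where 9.61% and 8.52% of all genes were called. In that mean the interleukin-4 receptor chain Il4ra was higher (0.30, limma adjusted p = 0.0345) and the histone demethylase Kdm6b lower (-0.35, limma adjusted p = 0.0244). The lectin Mgl2 was lower in wild type (-1.05, limma adjusted p = 1.18e-05, to a mean of 4.30 that is not above background) and differed by -0.22 in TLR4-/- (limma adjusted p = 0.407). The chitinase-like Chil3, also among the monocyte markers, was called higher in the mean, but its group means of 2.84 to 4.09 were all not above background, so no size is given. Of 12 measured partners and binding proteins of the family, limma called 0 in either genotype alone (2 in wild type and 3 in TLR4-/- at an unadjusted p under 0.05), and 1 higher and 1 lower in the mean of both, a share near that of all genes. Batf, which pairs with IRF4 and IRF8, rose by 0.42 (limma adjusted p = 0.0481), and Irf2bp2, a corepressor that binds IRF2, fell by 0.37 (limma adjusted p = 0.00765). Without wild-type sham array C and TLR4-/- I/R array D, the partners called lower numbered 3, the IRF1-linked genes called lower 1, the IRF4-linked genes called higher 1 and lower 1, and the sensing-route genes called higher 3.

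**Figure D4:**
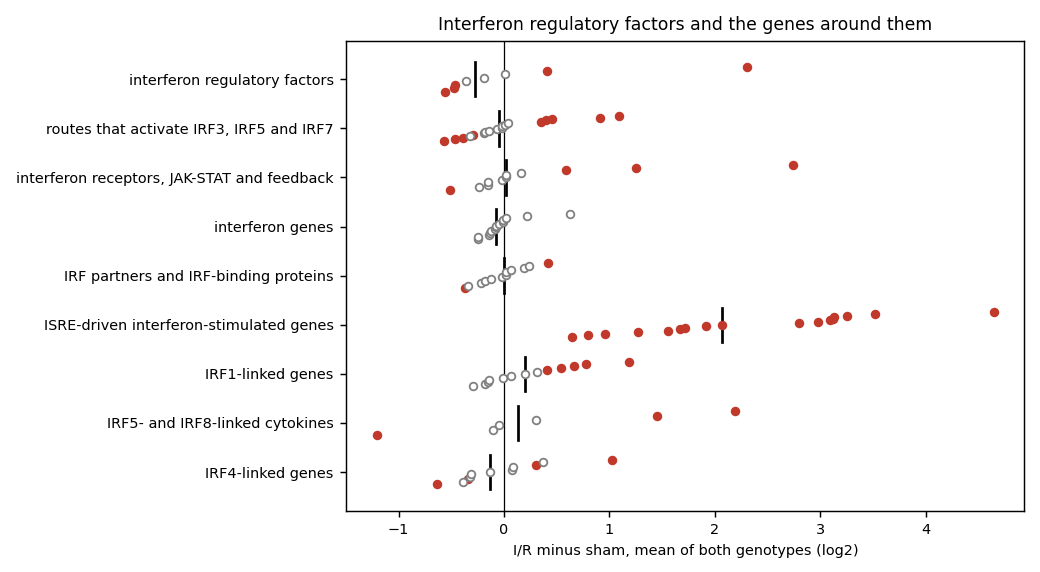
I/R minus sham in the mean of both genotypes, in log2 units, for each interferon regulatory factor and each gene of the 8 lists; red points passed a limma adjusted p under 0.05, open points did not, and the black bar is the median of a row. The 17 ISRE-driven genes are all higher, with a median of 2.07, while the 14 interferon genes have no red point.

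The genes whose profile over the 14 arrays was closest to each called member were found among 12532 genes above background, by the root-mean-square difference after centring each gene on its mean. For Irf7 they were the nuclear body protein Sp100 (difference 0.29 log2 units), the complement factor Cfb (0.30) and the antiviral GTPase Mx1 (0.36), set against an SD of 1.25 for Irf7 over the arrays. For Irf5 they were the microglia marker Tmem119 (0.077), Sting1 (0.081) and Smap2 (0.088), against an SD of 0.29 for Irf5. For Irf2 the nearest were Cd164 (0.077), Acp2 (0.080) and Galnt4 (0.085), against an SD of 0.25. For Irf9 they were Mical1, Nelfe and Mvp (0.13 to 0.14, SD 0.29), and for Irf4 Ssh2, Zfp398 and Shank2 (0.17, SD 0.37). A difference below the SD of the member was common. It held for 6532 of the 12532 genes for Irf7, 4127 for Irf5, 3821 for Irf2, 2221 for Irf9 and 4938 for Irf4. Within the family Irf2 and Irf5 were each other's closest member, with a difference of 0.17 log2 units, and the closest to Irf7 was Irf9 at 1.00.

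Markers of some cell types moved after I/R, and those of others had few or no calls. Of the measured B and plasma cell, oligodendrocyte and neuron markers, 0 were called in either genotype by limma. The T and NK cell, neutrophil, astrocyte and endothelial cell lists had 0 to 2 markers called per direction in each genotype. Some markers of each of these lists were at or below background. Of 12 measured microglia markers, 9 were called lower in wild type (against 3.63% of all genes) and 7 in TLR4-/- (against 3.13%), with medians of -0.45 and -0.42. The count in TLR4-/- was 4 without wild-type sham array C and TLR4-/- I/R array D. The mean of these markers ran from 10.75 to 10.96 in wild-type I/R arrays and from 11.18 to 11.25 in wild-type sham arrays. In TLR4-/- the mean ran from 10.74 to 10.86 after I/R and from 11.19 to 11.27 after sham. The falls of Irf2 (0.40 and 0.52), Irf4 and Irf5 (0.51 in wild type) stand beside these values. Of 10 measured monocyte markers, 6 were called higher in wild type (against 6.15% of all genes) and 5 in TLR4-/- (against 5.04%). Their mean rose from between 4.89 and 5.01 to between 6.34 and 6.93 in wild type. In TLR4-/- it rose from between 4.58 and 4.79 to between 6.15 and 6.40. Among these markers Fn1 was higher by 5.53 in wild type and 5.40 in TLR4-/- (limma adjusted p = 6.03e-12 and 8.84e-11). The chemokine receptor Ccr2 differed by 0.41 in wild type (limma adjusted p = 0.0763) and by -0.22 in TLR4-/- (limma adjusted p = 0.501), neither of which passed. Of 10 measured dendritic cell markers, 1 was called higher and 2 lower in wild type, and 1 higher and 1 lower in TLR4-/-. The marker called lower in TLR4-/- is also among the microglia markers. The medians over the 10 dendritic cell markers were -0.16 in wild type and -0.22 in TLR4-/-. For TLR4-/- against wild type, the 10 border-associated macrophage markers had medians of -0.43 after sham and -0.58 after I/R, with 0 called by limma in either. The part of any of these marker shifts in the results for the interferon regulatory factors was not tested.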

How the data were processed

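RNA of sorted microglia was hybridised to Affymetrix Mouse Gene 1.0 ST arrays, 1 sample per array. Per the submitters' processing notes the authors deposited log2 values made with RMA in oligo, a method of background correction, normalization between arrays and summary over the probes in each row, with no version stated. Array medians lay between 4.93 and 5.12, arrays have no sequencing depth, and their number limits the precision.

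Of 35556 rows, 21789 carried 1 symbol in the platform annotation, 1621 several and 12146 none; the last 2 kinds were left out. The highest-mean row stood for each of 19938 genes. One limma 3.58.1 model in R 4.3.3 (lmFit and eBayes) held 4 group means over 14 arrays, with 7 contrasts, Benjamini-Hochberg adjustment over all genes and calls under 0.05, checked on simulated data.

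The members and lists were chosen with earlier results of these data known. Genes outside the family were named by rule: up to 4 called genes per list by smallest p, up to 4 called in the opposite direction, and the 3 nearest profiles of each called member; Tlr4, Ifnb1, Ccr2 and Fn1 were added as checks or examples after their values were seen. Alternatives were centring, eBayes and weighting options, filters, rows, blocks and left-out arrays. Protein sequences were not used here.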

Additional observations from a re-analysis of the deposited data

How the results depend on the processing

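No value of a family member that was called changed direction under the alternatives run, and of 1264 member values under an alternative, 1241 stayed on their side of the threshold, 14 lost the call and 9 gained it; the Irf7 rises passed under all of them. Members called in wild type numbered 4, but 2 with each array centred on its median, and 2 to 5 with 1 array left out (2 without wild-type I/R array A or D). With 1 array left out, genes called in TLR4-/- ran from 970 (without sham array A; 1071 without I/R array C) to 1888, and genes called for the difference of the changes from 0 to 1 (without wild-type sham array C). For TLR4-/- against wild type after sham, 1 gene was called; the count was 2 with trend and robust eBayes, with array weights, with every array row tested and with a replicate block on the letter in the titles, 0 with only the groups compared, 10 without wild-type sham array C and TLR4-/- I/R array D together, and 0 to 10 with 1 array left out. After I/R it was 4, and 7 with array weights, 1 over genes above background, 1 with all rows, 0 with the replicate block, 0 with only the groups compared, 0 without both arrays, and 0 to 5 with 1 array left out. In the mean of both surgeries it was 5, and 3 with all rows, 2 with the replicate block, and 2 to 7 with 1 array left out. The cause of these shifts was not tested, and no member was called in the genotype comparisons under any of the settings. Deviations of arrays with the same letter had a median r of 0.04 over 18 pairs (from -0.10 to 0.28, 3 pairs over 0.1). Pairs with different letters had a median of -0.005 over 55 pairs (from -0.26 to 0.24, 6 pairs over 0.1). These ranges overlap, and the letters were not taken as pairs. The block left the members called at 4, 2 and 5. Leaving out both arrays was applied to the lists after the data were seen. Precision is limited by 3 or 4 arrays per group, and Irf4 and most interferon genes lie near background.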
